A study of Mus musculus with 20 samples.

Results

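Subiculum pyramidal cells that project to the target labelled NA were compared with those that project to the target labelled VHN. The comparison takes 6 of the 12 bulk RNA-seq libraries, and 6 of the 20 samples in the whole series. All libraries come from mouse subiculum. The cells were fluorescent neurons, sorted by hand out of microdissected slices, and each population was measured in 3 libraries given as biological replicates. The labels do not spell out the targets: NA is the customary short form of nucleus accumbens, and VHN is kept as written. Strain, age, sex, tracer and the number of cells or animals per library are not given in the sources used here. Both populations carry the same tissue and cell type labels, and projection target is the only difference that the labels give. The other 6 bulk libraries, from cells projecting to targets labelled PFC and RSC, entered the same statistical fit and are described where they bear on the comparison. Gene fragments per library were 17031058, 11325171 and 18997291 in NA replicates 1 to 3, and 18063654, 15747768 and 16210123 in VHN replicates 1 to 3. Between 13899 and 15812 genes had at least 1 fragment.

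The subiculum carries most of the hippocampal output to the rest of the brain. Its principal neurons are glutamatergic pyramidal cells that receive input from CA1 and send axons to cortical, striatal, thalamic and hypothalamic targets, and a given cell tends to reach a restricted set of them. The nucleus accumbens is a ventral striatal region that takes part in reward and motivated behaviour. In such pyramidal cells, differences between projection classes are often seen in ion channels, peptide and growth factor signalling, adhesion and guidance molecules and the presynaptic release machinery.

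The pyramidal label was checked first. All 12 listed markers of excitatory pyramidal cells were tested, and 0 of them lacked fragments in all 6 libraries. Emx1 was low, at 0, 0 and 0.574 CPM in NA libraries and 2.47, 1.25 and 2.68 CPM in VHN libraries. The vesicular glutamate transporter Slc17a7 was at 844, 929 and 718 CPM (the share of a library's fragments, scaled between libraries) in NA replicates 1 to 3, and at 643, 638 and 513 CPM in VHN replicates 1 to 3. The groups did not overlap but the difference missed the threshold (log2 fold change 0.47 ± 0.15 SE, edgeR adjusted p = 0.0986). Markers of other cells were near 0 in most libraries. Of 5 markers of oligodendrocyte precursors in the table, 4 stayed under 1 CPM in all 6 libraries, as did 6 of 9 for microglia and 5 of 8 for vessel cells. VHN replicate 3 was an exception for interneuron markers. In that library Gad2, which makes GABA, was at 91.9 CPM, whereas NA libraries had 5.96, 7.40 and 0.156 CPM and VHN replicates 1 and 2 had 0.158 and 0.238 CPM. In the same library the peptide gene Sst was at 55.5 CPM, whereas NA libraries had 0.870, 1.18 and 0 CPM and VHN replicates 1 and 2 had 0.105 and 0 CPM. The 16 interneuron markers that were in the table summed to 439, 897 and 238 CPM in NA libraries and to 511, 385 and 476 CPM in VHN libraries, with Cck, which pyramidal cells also express, making up most of each sum. The part of these cells in the results below was not tested, and values without VHN replicate 3 are given beside the main counts. On the second principal component of all 12 libraries, which carried 18.2% of the variance, NA replicate 2 stood apart from the other 11 libraries.

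Of 13916 genes tested, 225 rose in NA cells relative to VHN cells and 158 fell (edgeR's quasi-likelihood test with Benjamini-Hochberg adjustment, adjusted p under 0.05). These are 1.62% and 1.14% of the genes tested, 2.75% together. When a log2 fold change of 1 or more in size was also required, 154 rose and 147 fell. Changes downward were larger: the median log2 fold change was 1.21 among the genes that rose and -1.71 among those that fell. Of the 383 genes, which the test itself chose, 381 had no overlap between the 3 NA and the 3 VHN libraries, as did 3189 of all 13916 tested. The balance of the directions depended on scaling, since 135 rose and 264 fell when libraries were scaled by total fragments alone, where the median log2 fold change of all genes was -0.19. Without VHN replicate 1, 72 genes rose and 64 fell. Without VHN replicate 2 these were 85 and 71, and without VHN replicate 3 they were 151 and 97. Without NA replicate 1, 170 rose and 88 fell. Without NA replicate 2, which stood apart on the second principal component, 161 rose and 147 fell, so the directions were closer to balance. Without NA replicate 3, 281 rose and 148 fell. In bulk libraries, fewer cells of a type and less RNA per cell cannot be told apart, and this holds for each level below.

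**Figure D1:**
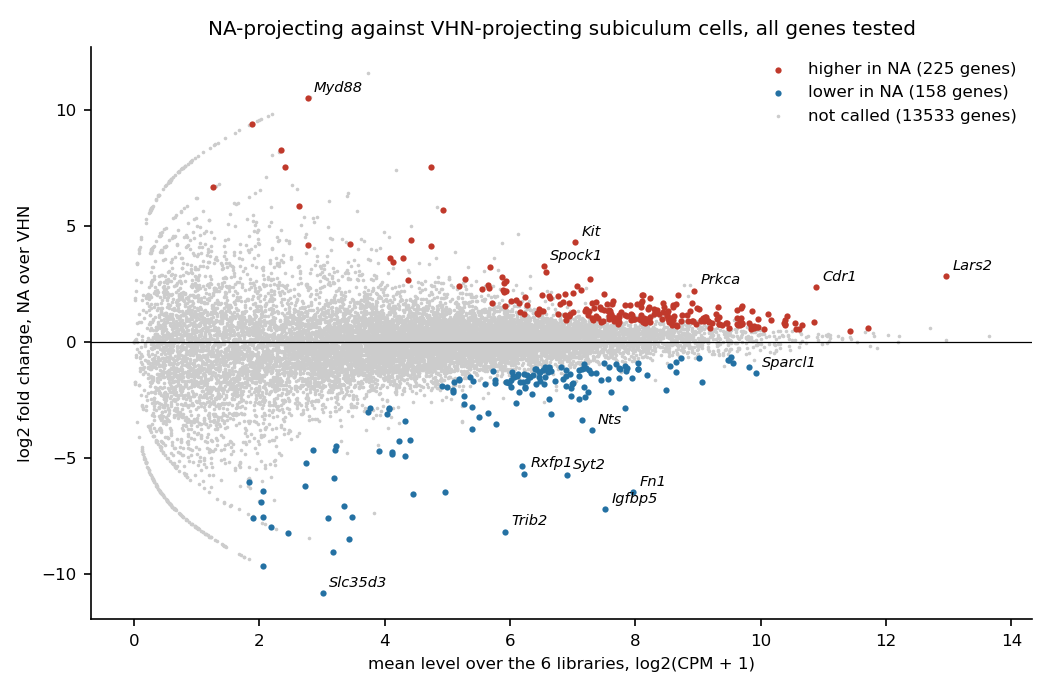
Mean level over the 6 NA and VHN libraries (x axis, log2(CPM + 1)) against the log2 fold change of NA over VHN (y axis) for the 13916 genes tested. Red points are the 225 genes higher in NA, blue points the 158 genes lower in NA, grey points the other genes; the blue points reach much further from 0 at moderate levels than the red ones, as for Igfbp5, Fn1 and Trib2.

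Gene length moved with the comparison. The authors' fragments and FPKM values imply a median length of 3.85 kb for the genes that rose in NA, 1.57 kb for those that fell and 2.51 kb for all genes tested. Genes were put in 5 equal bins by length. In the shortest bin, 9 rose and 69 fell, with a median log2 fold change of -0.39. In the longest bin, 103 rose and 26 fell, with a median of 0.21. The shortest bin took 7.76%, 7.98% and 7.07% of the fragments in NA libraries, against 9.64%, 10.1% and 9.82% in VHN libraries. When the smooth trend on length was removed from each library, 141 genes rose and 118 fell, and 211 of the 383 calls were kept, with 0 in the opposite direction. This alternative was chosen after the data were seen. Of the genes named by rule, it ended the calls of Zfhx4, Npsr1, Ywhaz, Grin2b, Gabrb2, Kcnj3, Kcnd2, Camk2a, Gpr158, Pcdh1, Bhlhe22, Nptx2, Stmn1, Ldhb, Man1a and Slc1a2, among others.

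The lead gene lower in NA was Nts, the precursor of the neuropeptide neurotensin, which shared the smallest adjusted p of the comparison with Cdr1. Nts (ENSMUSG00000019890) was at 25.4, 20.3 and 18.2 CPM in NA libraries and at 406, 273 and 199 CPM in VHN libraries. The highest NA library lay far under the lowest VHN library, and the mean was 13.8-fold lower in NA (log2 fold change -3.78 ± 0.38 SE, edgeR adjusted p = 0.000169). The lead growth factor receptor higher in NA was Kit, the receptor tyrosine kinase for stem cell factor. Kit (ENSMUSG00000005672) was at 186, 368 and 193 CPM in NA libraries and at 0.420, 15.7 and 21.6 CPM in VHN libraries. VHN replicate 1 was almost without it, and the mean was 19.8-fold higher in NA (log2 fold change 4.31 ± 0.84 SE, edgeR adjusted p = 0.0103). When the 6 libraries were fitted alone, the Kit call was lost (edgeR adjusted p = 0.0567), and it held in the other 23 alternatives.

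The sequence before the transcription start of these 2 genes is shown because they are a peptide gene lower in NA and a receptor gene higher in NA that the text returns to. Each run is the 250 bases before the RefSeq start in build GRCm38.p6, read 5′ to 3′ on the gene's strand. The Kit run is chr5:75574737-75574986 on the plus strand, at the first of 2 listed starts, and the Nts run is chr10:102490419-102490668 on the minus strand. Capitals mark matches to motifs searched on both strands. The motif of an AP-1 site was spelled TGACTCA. That of the GC box was spelled GGGCGG. The TATA box was searched as TATAAA in the same way. A full cyclic AMP response element was searched as TGACGTCA and, differing from the AP-1 letters by an inserted base, shares no match with them.
Kit: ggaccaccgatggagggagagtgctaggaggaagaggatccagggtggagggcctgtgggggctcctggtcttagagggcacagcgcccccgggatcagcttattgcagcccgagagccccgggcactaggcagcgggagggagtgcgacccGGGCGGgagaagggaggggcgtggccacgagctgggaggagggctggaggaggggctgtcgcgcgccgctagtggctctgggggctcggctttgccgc
Nts: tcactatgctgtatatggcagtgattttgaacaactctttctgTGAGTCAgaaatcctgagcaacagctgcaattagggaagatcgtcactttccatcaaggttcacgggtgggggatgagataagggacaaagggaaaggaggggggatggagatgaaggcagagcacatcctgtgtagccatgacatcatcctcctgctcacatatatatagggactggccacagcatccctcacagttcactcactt
Nts held 1 match, to the AP-1 letters on the other strand, beginning 207 bases before the start. Kit held 1 match, to the GC box, beginning 98 bases before the start. Of 32851 starts in the RefSeq table, 4.46% held the AP-1 letters in this window, 32.7% the GC box letters, 12.4% the TATA letters and 1.55% the full response element. A match in letters does not show that a factor binds there. Only the exact letters were searched, so the lack of a match does not show that looser forms of a motif are absent.

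Several secreted and matrix genes were nearly silent in NA. Igfbp5, which binds insulin-like growth factors, was at 3.29, 4.29 and 0.156 CPM in NA libraries and 471, 412 and 203 CPM in VHN libraries, 140.4-fold lower in NA (log2 fold change -7.20 ± 0.95 SE, edgeR adjusted p = 0.000936). Fn1, fibronectin, was at 0.0621, 1.82 and 14.4 CPM in NA libraries and 615, 575 and 285 CPM in VHN libraries, 90.4-fold lower in NA (edgeR adjusted p = 0.00165), and NA replicate 3 carried most of the NA mean. Thbs1, the matrix protein thrombospondin 1, was 157-fold lower in NA, where it rested on 4 fragments in all, and Bmper, a secreted protein that binds bone morphogenetic proteins, was 54.3-fold lower. Sparcl1, a secreted matrix protein, was expressed in both populations, at 701, 346 and 616 CPM in NA libraries and 1446, 1429 and 1272 CPM in VHN libraries. The proteoglycan gene Spock1 went the other way, at 106, 235 and 158 CPM in NA libraries and 6.78, 19.4 and 25.1 CPM in VHN libraries, 9.74-fold higher in NA (log2 fold change 3.28 ± 0.58 SE, edgeR adjusted p = 0.00589). Of 45 extracellular matrix genes tested, 4 rose and 7 fell in NA (8.89% and 15.6%), against 1.62% and 1.14% of all genes tested. These 2 shares of all genes are the background for each list below. Where a list had only a few calls, no excess over them is claimed. The 4 that rose were Spock1, Nell2, Ccn3 and Spock2. The list's median log2 fold change was 0.51, on the opposite side of 0 from most of its calls, against -0.00 over all genes tested.

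Other genes at or near 0 in NA encode proteins of several other kinds. Trib2, a pseudokinase, was at 0.249, 0.214 and 0.678 CPM in NA libraries and 183, 106 and 67.6 CPM in VHN libraries, 313-fold lower in NA (log2 fold change -8.17 ± 1.01 SE, edgeR adjusted p = 0.000601). Slc35d3, of the nucleotide sugar transporter family, had 0 fragments in all 3 NA libraries and was at 30.9, 3.69 and 7.82 CPM in VHN libraries, at least 220.0-fold lower in NA when set against a floor of 3 fragments over the group. The scaffold gene Whrn was at 0.0621, 0.107 and 0 CPM in NA libraries and 29.4, 11.1 and 18.4 CPM in VHN libraries, a ratio of 447 with a 95% counting interval of 123 to 3693. The ratio was 730.0 (interval 131 to 28867) for the lipase gene Lipm and 225 (interval 76.7 to 1094) for Mctp2, which encodes a membrane protein with C2 domains. These intervals cover counting error only. The neuropeptide list had 1 higher and 2 lower of 38, Nrg3, Nts and Lypd1, with a median log2 fold change of 0.94. These are 2.63% and 5.26%, against 1.62% and 1.14% of all genes tested. Lypd1, a modulator of nicotinic receptors, was at 95.2, 4.72 and 68.3 CPM in NA libraries and 419.9, 465 and 311 CPM in VHN libraries. The neuregulin gene Nrg3 was at 282, 361 and 164 CPM in NA libraries and 74.2, 109 and 135 CPM in VHN libraries. Fyb2 and Sowahb were 101-fold and 73.9-fold lower in NA. The neuropeptide S receptor gene Npsr1 was at 0, 0.107 and 1.83 CPM in NA libraries and 92.2, 30.7 and 56.2 CPM in VHN libraries (edgeR adjusted p = 0.0496), and its call was lost when the length trend was removed. In the plot of 12 genes by library, the VHN points of Nts, Igfbp5, Fn1, Syt2, Rxfp1 and Trib2 lie nearer those of RSC than those of PFC, and the reverse holds for the NA points.

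**Figure D2:**
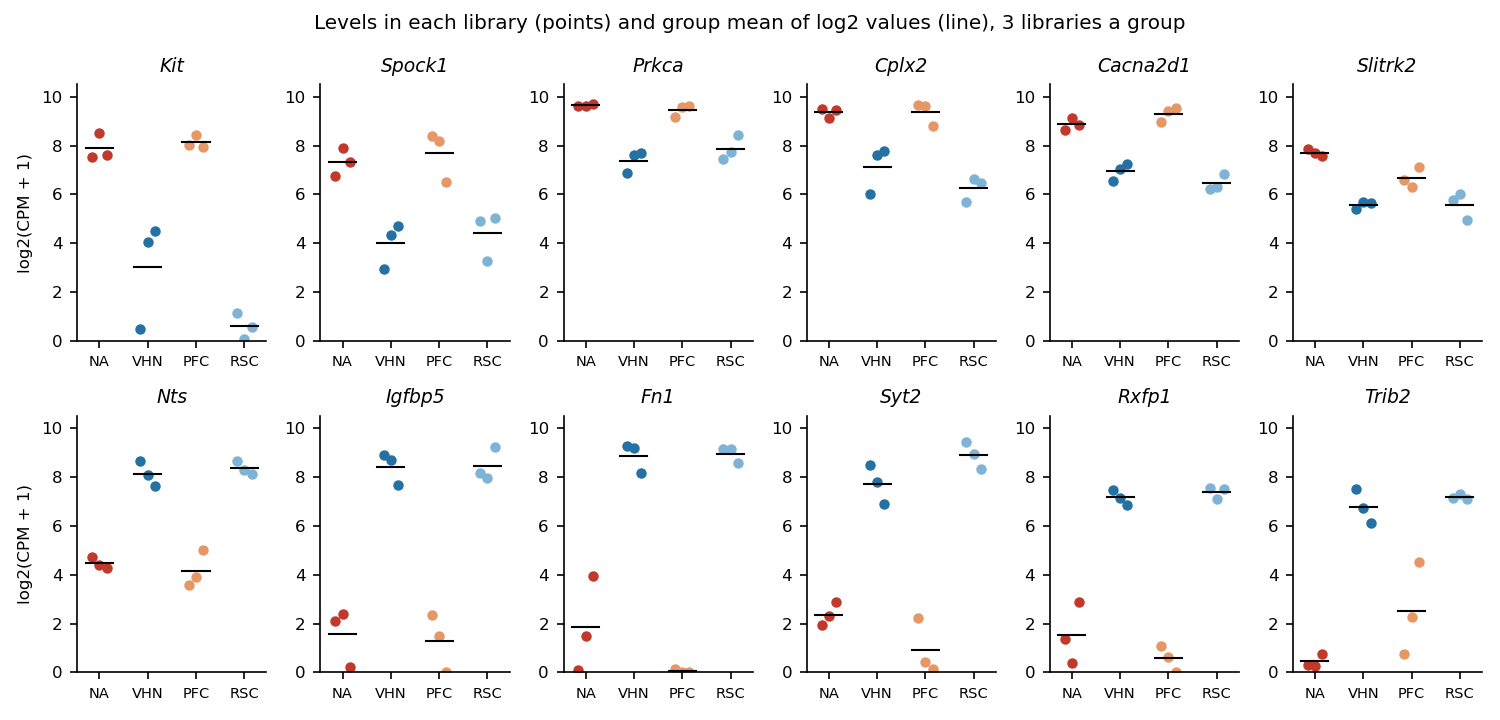
Level of 12 genes in each library (points, y axis in log2(CPM + 1)), with a line at the mean of the log values of the 3 libraries, for NA, VHN, PFC and RSC from left to right. The top row holds genes higher in NA and the bottom row genes lower in NA; no NA point overlaps a VHN point, and VHN replicate 1 is the lowest VHN point of all 6 genes in the top row.

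Among the largest upward folds, several rested on 1 or 2 NA libraries. Catalase, Cat, was at 4.91, 157 and 11.3 CPM in NA libraries and 0.420, 1.61 and 1.28 CPM in VHN libraries, and the meiotic gene Mei4 was at 5.41, 147 and 0.521 CPM in NA libraries and 0.315, 0 and 0.467 CPM in VHN libraries. Both were dominated by NA replicate 2, and both calls were lost without it. NA replicate 2 was also the highest for Slc30a10, a manganese transporter, at 18.8, 87.8 and 10.7 CPM in NA libraries and 2.89, 0.536 and 2.10 CPM in VHN libraries. It was close to the VHN libraries for Piga, needed for GPI anchors, at 15.2, 0.322 and 15.3 CPM in NA libraries and 0.263, 0.0595 and 0.175 CPM in VHN libraries. Myd88, an adaptor of Toll-like receptors, had 0 fragments in VHN libraries and was at 14.8, 17.8 and 2.40 CPM in NA libraries, at least 179-fold higher. A more even fold was that of Ak4, a mitochondrial adenylate kinase, at 30.9, 30.8 and 41.2 CPM in NA libraries and 1.94, 1.85 and 4.55 CPM in VHN libraries. Fam13a was 10.9-fold higher in NA. The phospholipid-binding Anxa11 was at 6.21, 36.1 and 14.4 CPM in NA libraries and 1.10, 1.25 and 0.642 CPM in VHN libraries, and the clustered protocadherin Pcdhb12 was at 32.3, 37.4 and 19.3 CPM in NA libraries and 1.47, 4.64 and 1.05 CPM in VHN libraries. The calls of Anxa11, Pcdhb12 and Slc30a10 were also lost without NA replicate 2, where the log2 fold change of Anxa11 was 3.36, against 4.23 with it. NA replicate 2 was the highest NA library for 146 of the 225 genes that rose, and VHN replicate 1 the lowest VHN library for 111 of them.

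Many single calls depended on 1 library. Of the 86 called genes that the naming rule picked, 39 passed whichever of the 12 libraries was left out. Among them were Nts, Kit, Spock1, Prkca, Cplx2, Cacna2d1, Cacna1e, Hpcal4, Slitrk2, Ncam1, Cntn1, Plxna1, Neo1, Ppp3r1, Syp, Lars2 and Cdr1, and, of those lower in NA, Igfbp5, Fn1, Thbs1, Bmper, Sparcl1, Trib2, Slc35d3, Whrn, Lipm, Mctp2, Fyb2, Syt2, Rxfp1, Crym, Kcnab3, Scn4b, Plcb4, Tenm3, C1ql3, Ldhb and Ckb. The calls lost numbered 25, 21 and 10 without NA replicates 1, 2 and 3 in turn, and 43, 34 and 21 without VHN replicates 1, 2 and 3 in turn. Some sizes moved by over 1.5 times where the call held. Without NA replicate 3, the log2 fold change was -9.25 for Fn1, -7.15 for Rxfp1, -8.94 for Trib2, -6.59 for Igfbp5 and -3.39 for Scn4b. Without VHN replicate 3 it was 4.95 for Kit.

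Of 15 voltage-gated calcium channel genes tested, 4 rose and 0 fell, with a median log2 fold change of 0.72. Cacna2d1, the alpha-2-delta-1 auxiliary subunit, was at 399, 557 and 461 CPM in NA libraries and 93.4, 131 and 149 CPM in VHN libraries, 3.79-fold higher in NA (log2 fold change 1.92 ± 0.24 SE, edgeR adjusted p = 0.000601). Cacna1e, the pore subunit of R-type channels, was 2.56-fold higher and the beta subunit Cacnb2 3.79-fold higher. The fourth, the N-type pore gene Cacna1b, was named after its values were seen and averaged 446 ± 488 CPM over NA libraries, against 108 ± 27.3 CPM over VHN libraries (SD, n = 3 each), so its spread among NA libraries exceeded its mean. Calcium-binding and calcium-signalling genes had 4 higher and 1 lower of 47, with a median log2 fold change of 0.45. Besides Hpcal4 and Camk2a, those that rose were Orai2 and Necab1. Hpcal4, a neuronal calcium sensor, was 2.76-fold higher, at 714, 770.0 and 732 CPM in NA libraries and 221, 242 and 338 CPM in VHN libraries. The kinase subunit genes split: Camk2a was 1.78-fold higher in NA and Camk2g 3.04-fold lower.

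Potassium channel genes moved both ways, with 3 higher and 3 lower of 61 and a median log2 fold change of 0.51. This is 4.92% in each direction, against 1.62% higher and 1.14% lower of all genes tested. Kcnab3, a beta subunit of Shaker-type channels, was at 32.1, 6.002 and 23.5 CPM in NA libraries and 192, 169.8 and 173 CPM in VHN libraries, 8.67-fold lower in NA (log2 fold change -3.11 ± 0.56 SE, edgeR adjusted p = 0.0064). The G protein-gated channel gene Kcnj3 and the A-type channel gene Kcnd2 were 1.95-fold and 2.08-fold higher in NA, and both calls were lost when the length trend was removed. The others that passed were Kcnd3, higher, and Kcnn1 and Kcna5, lower. Genes given here and below by name alone were named after their values were seen. Of 33 sodium, HCN and other cation channel genes, 0 rose and 1 fell (3.03%, against 1.14% of all genes tested). That gene, the sodium channel beta subunit Scn4b, was at 7.39, 6.22 and 17.6 CPM in NA libraries and 77.2, 89.1 and 47.7 CPM in VHN libraries, 6.87-fold lower in NA.

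Of 34 glutamate receptor and auxiliary genes, 3 rose (Grin2b, Grik4 and Shisa7) and 1 fell, with a median log2 fold change of 0.48. Of 18 GABA and glycine receptor genes, 2 rose and 0 fell, with a median of 0.32. The NMDA receptor subunit Grin2b was 1.78-fold higher in NA, whereas Cacng3, an AMPA receptor auxiliary subunit, was 3.16-fold lower (edgeR adjusted p = 0.00696). The GABA-A receptor subunit Gabrb2 was at 1288, 1059.6 and 1100.2 CPM in NA libraries and 824, 662 and 765 CPM in VHN libraries, 1.53-fold higher in NA. The calls of Grin2b and Gabrb2 were lost when the length trend was removed. The muscarinic receptor Chrm1 was the 1 gene that rose among 34 monoamine, acetylcholine, adenosine and cannabinoid receptors (2.94%, against 1.62% of all genes tested). Chrm1 was at 316, 368 and 326 CPM in NA libraries and 157, 184 and 158 CPM in VHN libraries. Among peptide and orphan receptors the orphan Gpr101 was at 19.6, 38.5 and 18.0 CPM in NA libraries and 352, 229 and 186 CPM in VHN libraries, 10.1-fold lower in NA. Gpr158 was 2.46-fold higher. Gfra1, the co-receptor of glial cell line-derived neurotrophic factor, was 3.68-fold lower, opposite to Kit, the other growth factor receptor of 40 that passed the test. Each is 2.5% of that list, against 1.62% higher and 1.14% lower of all genes tested.

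Genes of the release machinery moved both ways. Syt2, a fast calcium sensor for vesicle fusion, was at 2.80, 3.97 and 6.31 CPM in NA libraries and 356, 223 and 119.6 CPM in VHN libraries, 53.4-fold lower in NA (log2 fold change -5.73 ± 0.72 SE, edgeR adjusted p = 0.000601). Cplx2, a complexin that binds the fusion complex, was at 726, 561 and 697 CPM in NA libraries and 63.2, 195 and 218 CPM in VHN libraries, 4.17-fold higher in NA (log2 fold change 2.06 ± 0.37 SE, edgeR adjusted p = 0.00668). The vesicle protein synaptophysin, Syp, was 2.33-fold higher. Of 71 vesicle and release genes, 7 rose and 3 fell, with a median log2 fold change of 0.37, and 4 rose with the length trend removed. The 3 that fell were Syt2, the vesicle glycoprotein gene Sv2c, 26.4-fold lower, and the second vesicular glutamate transporter Slc17a6. Slc17a6 was at 159, 157 and 174 CPM in NA libraries and 370.0, 427 and 290.1 CPM in VHN libraries, 2.22-fold lower in NA (edgeR adjusted p = 0.0331).

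In second messenger signalling 6 of 78 genes rose and 2, Trib2 and Plcb4, fell, with a median log2 fold change of 0.07. Prkca, a calcium-dependent protein kinase C, was at 794, 777 and 843 CPM in NA libraries and 116, 193 and 204 CPM in VHN libraries, 4.70-fold higher in NA (log2 fold change 2.23 ± 0.26 SE, edgeR adjusted p = 0.00049). The NA libraries were within a narrow range and every one lay above 3 times the highest VHN library. Plcb4, a phospholipase C, was at 56.5, 71.1 and 49.6 CPM in NA libraries and 186, 293 and 205 CPM in VHN libraries, 3.85-fold lower. Ppp3r1, the regulatory subunit of calcineurin, was at 1928, 1898 and 1826 CPM in NA libraries and 769, 824 and 981 CPM in VHN libraries, 2.19-fold higher in NA. Rxfp1, the relaxin receptor, listed here as a marker of neighbouring cortex, was at 1.55, 0.322 and 6.36 CPM in NA libraries and 177, 141 and 115 CPM in VHN libraries, 52.6-fold lower in NA (log2 fold change -5.66 ± 0.78 SE, edgeR adjusted p = 0.00133).

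Synaptic adhesion genes rose more often than they fell, 12 and 4 of 82, with a median log2 fold change of 0.24. Slitrk2, a postsynaptic adhesion protein, was at 228, 208 and 190.1 CPM in NA libraries and 41.3, 51.1 and 49.0 CPM in VHN libraries, 4.43-fold higher in NA (log2 fold change 2.15 ± 0.31 SE, edgeR adjusted p = 0.00203). The immunoglobulin-type adhesion genes Ncam1 and Cntn1 were 2.11-fold and 2.01-fold higher. With the length trend removed, 6 adhesion genes rose. Among those that fell, the teneurin Tenm3 was at 233, 260.0 and 258 CPM in NA libraries and 1172, 687 and 580.2 CPM in VHN libraries, and C1ql3, a secreted synaptic organiser, was 4.47-fold lower. Elfn1 and Dscam were the others. Of 58 axon guidance genes, 4 rose (Plxna1, Neo1, Slit1 and Plxna2) and 1 fell, with a median of 0.25. The semaphorin receptor Plxna1 was 2.85-fold higher and neogenin, Neo1, a receptor for netrins and repulsive guidance molecules, 2.81-fold higher. The netrin receptor Unc5c was at 87.3, 114 and 84.1 CPM in NA libraries and 419, 219 and 208 CPM in VHN libraries, 2.96-fold lower. Of 30 cadherins and protocadherins in the list, 1 rose, Pcdh1, and 2 fell, Cdh7 (6.33-fold) and Cdh20 (3.91-fold). The receptor phosphatase gene Ptprt was 2.07-fold lower.

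Of 86 listed transcription factor genes, 6 rose and 0 fell, with a median log2 fold change of 0.24. Neurod6, a factor of cortical and hippocampal pyramidal cells, was at 324, 386 and 379 CPM in NA libraries and 61.3, 177 and 118 CPM in VHN libraries, 3.06-fold higher. Tbr1 was 3.15-fold higher, at 206, 494 and 148 CPM in NA libraries and 84.1, 93.5 and 91.3 CPM in VHN libraries, with NA replicate 2 the highest. Without it the Tbr1 call was lost, at a log2 fold change of 0.98 against 1.66. Bhlhe22 was at 50.7, 191 and 56.0 CPM in NA libraries and 19.5, 14.9 and 29.9 CPM in VHN libraries, and its call was lost without NA replicate 2, at a log2 fold change of 1.32 against 2.21. Zfhx4 was 18.3-fold higher. The calls of Bhlhe22 and Zfhx4 were lost when the length trend was removed. Bcl6, a transcriptional repressor outside that list, was at 95.5, 222 and 100.3 CPM in NA libraries and 764, 546 and 421 CPM in VHN libraries, 4.14-fold lower in NA. Of the immediate early list, 1 of 33 rose (3.03%, against 1.62% of all genes tested). This was Nptx2, with 0 fragments in VHN libraries and 12.7, 1.93 and 1.36 CPM in NA libraries. Of 25 heat shock and stress genes and of 25 cholesterol and lipid synthesis genes, 0 passed edgeR's test in either direction, while 5 and 4 had an unadjusted p under 0.05 and DESeq2 called 1 and 2.

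Of 39 genes of ATP synthesis and glycolysis, 8 fell and 1 rose, with a median log2 fold change of -0.47. Ldhb, a lactate dehydrogenase subunit, was at 242, 248 and 213 CPM in NA libraries and 632, 534 and 528 CPM in VHN libraries, 2.41-fold lower in NA (edgeR adjusted p = 0.00625). Malate dehydrogenase, Mdh1, was 1.70-fold lower, and creatine kinase, Ckb, 1.88-fold lower. Ckb was listed with 53 cytoskeleton and axonal transport genes, of which 2 rose (Kif5b and Basp1) and 4 fell (Ckb, Stmn1, Stmn4 and Whrn), with a median log2 fold change of -0.02. The tubulin-binding Stmn1 was at 64.9, 67.5 and 84.0 CPM in NA libraries and 208, 154 and 239 CPM in VHN libraries. Gapdh was the gene that rose, 1.84-fold. Transcripts of the related subunit families are short. Of these, 17 of 82 respiratory chain and ATP synthase subunit genes fell and 0 rose, at a median length of 0.687 kb, and 20 of 81 cytosolic ribosomal protein genes fell and 0 rose, at 0.674 kb. Both families were collected by symbol after the data were seen. The ribosomal protein genes summed to 4063, 5239 and 4184 CPM in NA libraries and to 7409, 8561 and 8403 CPM in VHN libraries, with no overlap. With the length trend removed, 3 respiratory and 4 ribosomal genes still fell, at median log2 fold changes of -0.37 and -0.50, and 1 gene of the ATP synthesis and glycolysis list fell. The count of the energy list thus depended on how length was treated.

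**Figure D3:**
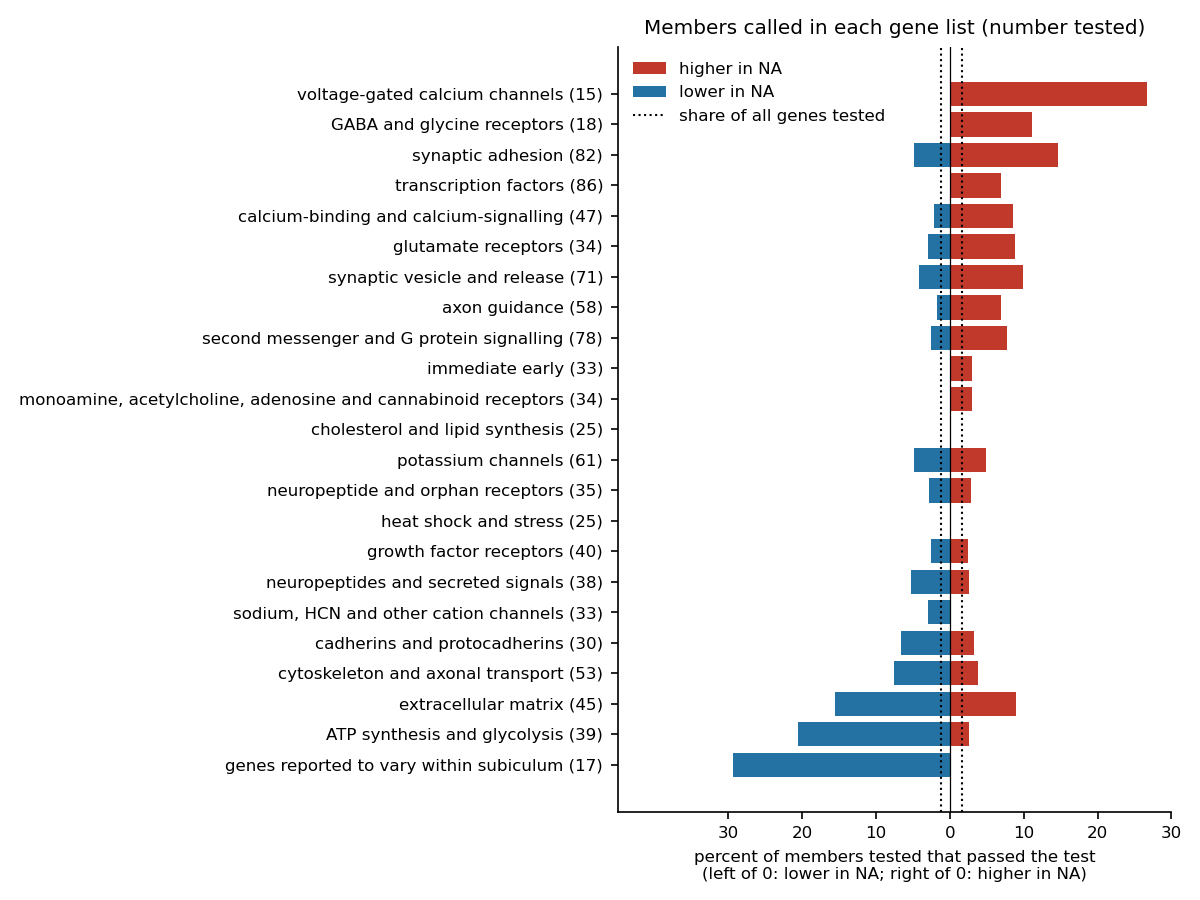
Percent of the tested members of each of the lists other than cell type markers that passed the test (x axis), with red bars to the right for genes higher in NA and blue bars to the left for genes lower in NA; the number tested follows each name, and dotted lines give the 1.62% and 1.14% of all genes tested. Among the lists drawn, calcium channels reach furthest to the right, with 4 of 15, and the 17 genes reported to vary within subiculum furthest to the left, with 5.

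By difference in mean CPM, 2 genes stood out among those that rose. Lars2, mitochondrial leucyl-tRNA synthetase, was at 13236, 17269 and 11558 CPM in NA libraries and 2719.7, 2103 and 951 CPM in VHN libraries, 7.29-fold higher in NA (log2 fold change 2.86 ± 0.31 SE, edgeR adjusted p = 0.000259). Mitochondrially encoded genes had 0 fragments in the table. Cdr1 was at 3495, 3576 and 2472 CPM in NA libraries and 354, 709 and 765 CPM in VHN libraries, 5.22-fold higher in NA. Cdr1 lies opposite an abundant antisense transcript of the brain, and the sources used here do not say whether reads were counted by strand, so the fragments of the 2 strands cannot be told apart. In the single-cell table described below, both genes were far lower than in any NA or VHN library. Over 348 cells the mean was 92.9 CPM for Lars2 and 0.835 CPM for Cdr1. The reason for this gap was not tested, nor was the origin of the Lars2 fragments in bulk. The adaptor Ywhaz and the reticulon Rtn1 were 1.53-fold and 1.41-fold higher in NA.

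Of 17 tested genes that had been reported to vary within subiculum, 0 rose and 5 fell in NA: Nts, Fn1, Gpr101, Sv2c and Slc17a6. The list was chosen with results of these libraries known and is not independent evidence of its direction. The other 12 did not pass. Htr2c, a serotonin receptor, came close, at 119.9, 35.9 and 87.6 CPM in NA libraries and 5.36, 29.2 and 27.7 CPM in VHN libraries (edgeR adjusted p = 0.0543). So did Ntng2, a netrin-G adhesion protein, at 43.5, 64.2 and 31.5 CPM in NA libraries and 3.41, 7.09 and 12.2 CPM in VHN libraries (edgeR adjusted p = 0.0555). Nos1, which makes nitric oxide, was at 2.11, 68.5 and 20.3 CPM in NA libraries and 0.735, 2.20 and 0.992 CPM in VHN libraries, and the Notch ligand homologue Dlk1 was at 294, 15.3 and 88.8 CPM in NA libraries and 0.578, 5.002 and 9.86 CPM in VHN libraries. Both spread over an order of magnitude among NA libraries. The calcium buffer Calb1 was at 77.7, 105 and 137 CPM in NA libraries and 0.315, 37.9 and 49.4 CPM in VHN libraries, with VHN replicate 1 near 0 and the other VHN libraries also below every NA library (edgeR adjusted p = 0.396). The factors Bcl11b and Tle4 had log2 fold changes of 0.12 and 0.13 (edgeR adjusted p = 0.86 and 0.891). Col5a2, S100b, Chrm2, Cbln4 and Rprm also did not pass.

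Markers of neighbouring regions and of other cells were counted the same way, beside 1.62% higher and 1.14% lower of all genes tested. The lists are short, and no excess over these shares is claimed. Of 12 CA1 markers tested, 1 rose, Man1a, 2.50-fold, and the list summed to 1515, 2000 and 1659 CPM in NA libraries and 1058, 1188 and 1095 CPM in VHN libraries. Of 8 presubicular, entorhinal and deep cortical markers, 2 fell, Rxfp1 and Crym. Crym, a thyroid hormone-binding protein, was at 40.9, 28.6 and 56.8 CPM in NA libraries and 266, 175 and 180.4 CPM in VHN libraries, 4.92-fold lower. Of 10 CA3 and CA2 markers, 1 rose, the kainate receptor gene Grik4, which stayed low at 1.93, 1.18 and 5.27 CPM in NA libraries. Of 7 dentate markers, 1 fell, C1ql3. Of 6 astrocyte markers, 1 rose, the glutamate transporter Slc1a2, at 403, 585 and 293 CPM in NA libraries and 61.1, 148 and 158 CPM in VHN libraries. Of the 10 astrocyte markers in the table, 4 were under 1 CPM in all 6 libraries (Gfap, Aldh1l1, Gja1 and Gjb6) and 6 were not. The 10 summed to 437, 677 and 355 CPM in NA libraries and 70.8, 165 and 212 CPM in VHN libraries, with Slc1a2 making up most of each sum. Sox9 was at 60.8 CPM in NA replicate 2 and Aldoc at 16.5 CPM in NA replicate 3. The part of astrocyte RNA in these values was not tested. The Man1a and Slc1a2 calls were lost when the length trend was removed.

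The PFC and RSC libraries place these genes in a wider frame. Of the 225 genes that rose in NA, 210 were also higher in PFC than in RSC by mean, with a median difference of 1.05 on the log2(CPM + 1) scale, against 0.02 over all genes tested. Of the 158 that fell, 155 were also lower in PFC than in RSC, with a median of -1.61. The share of all genes tested with the same sign was not computed. The shift with gene length ran the same way in these libraries. The shortest length bin took 8.32%, 8.22% and 8.03% of the fragments in PFC libraries, against 9.88%, 9.33% and 9.11% in RSC libraries. Ribosomal protein genes summed to 5141.5, 5437 and 4945 CPM in PFC libraries and to 8344, 7882 and 7738 CPM in RSC libraries. The part of this shift in the counts above was not tested. The 2 contrasts share no library. Their difference, NA minus VHN less PFC minus RSC, was tested in the same fit and called 23 genes (0.165% of those tested), 21 above and 2 below. Of the 23, 3 were also called between NA and VHN, Pura and Prepl among them. The count of the difference moved with single libraries. Without NA replicates 1, 2 and 3 in turn, 8, 11 and 48 genes were above. Without VHN replicates 1, 2 and 3 in turn, these were 11, 3 and 3, with 13 below in the first case. Without RSC replicates 1, 2 and 3 in turn, 3, 2 and 6 were above, and without PFC replicate 2, 10 were. With the length trend removed, 1 gene was called, Etv1. Values of the other named genes of the difference rest on the fit with that trend kept.

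**Figure D4:**
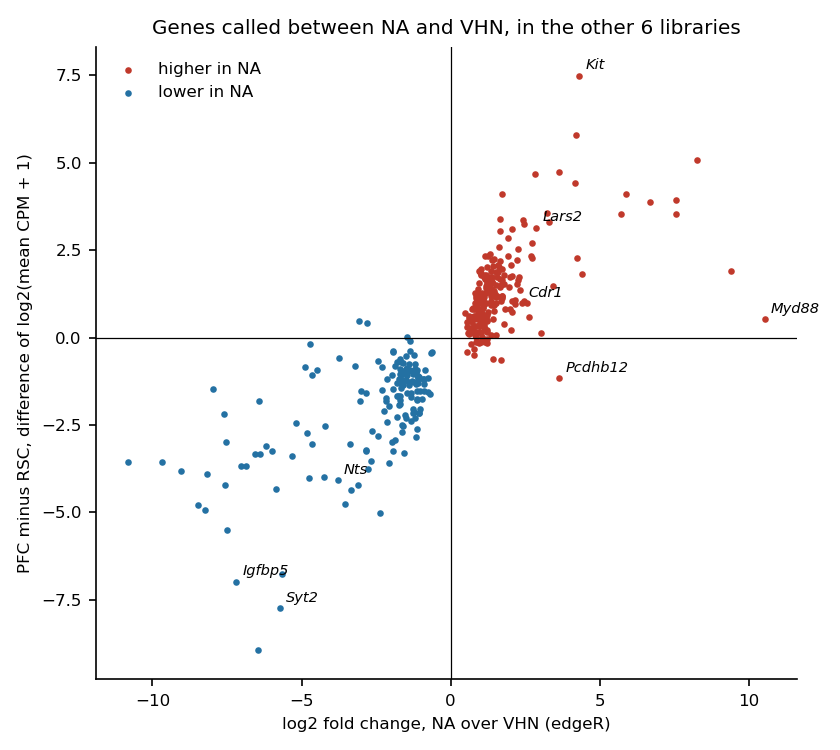
Log2 fold change of NA over VHN (x axis) against the difference of PFC minus RSC in log2(mean CPM + 1) (y axis), for the 383 genes called between NA and VHN (red higher in NA, blue lower in NA). Most points lie at the lower left and upper right, 155 of 158 and 210 of 225; Pcdhb12 is among the exceptions.

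The smallest adjusted p of the difference was that of Etv1, an ETS transcription factor used as a marker of deep cortical neurons. Etv1 was at 2797, 2459 and 2618 CPM in NA libraries and 2550.2, 2466 and 2124 CPM in VHN libraries, with no detected change between them (log2 fold change 0.14 ± 0.18 SE, edgeR adjusted p = 0.736). It was at 772, 562 and 1101 CPM in PFC libraries and 3118, 3072 and 3052 CPM in RSC libraries (difference 2.07 ± 0.25 SE, edgeR adjusted p = 0.00389). The microtubule-associated genes Map1a and Map1b and the secreted Wnt modulator Dkk3 showed the same form, with log2 fold changes between NA and VHN of 0.17, 0.10 and -0.35 and differences of 1.61, 0.85 and 1.31. Htr2c and the calcium-dependent membrane-binding gene Cpne6 were the 2 genes below, with differences of -4.40 and -1.69. Cpne6 was at 249, 165 and 235 CPM in NA libraries and 269.5, 211 and 197 CPM in VHN libraries, against 583, 647 and 541 CPM in PFC libraries and 230.4, 165 and 177 CPM in RSC libraries.

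The single-cell table was used to see whether the genes that separated the bulk populations varied together in single subiculum neurons. The labels tie no well to a projection target, so these are 348 cells with at least 1000 detected genes out of 384 wells, taken as 1 pooled sample on 4 plates, with a median of 5222 genes and 112400 counts per cell. The values describe these cells and carry no test, since cells share plates and depth. Of the 12 genes with the largest fold in each direction, 12 higher and 9 lower in NA matched the table, and 9 and 8 of these had a count in under 20% of cells. Kit had a count in 26.4% of cells, Spock1 in 21.8% and Trib2 in 20.4%. The highest rank correlation among these genes was between Kit and Spock1, both higher in NA (rho = 0.45, with both detected in 49 cells). The lowest was between Kit and Trib2, from opposite sides (rho = -0.25, with both detected in 3 cells).

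Nts had a count in 70.4% of cells, at a mean of 409 CPM, and was used as the anchor for a wider view, chosen after its values were seen. Among genes called in bulk and detected in at least 20% of cells, 87 of 116 lower in NA were positively correlated with Nts over cells, with a median rho of 0.20, and 67 of 180 higher in NA were, with a median of -0.04. The strongest were Lxn (rho = 0.68), Rxfp1 (0.68), Ldhb (0.67), Syt2 (0.65), Sparcl1 (0.64) and Ckb (0.63), all lower in NA in bulk. Kcnab3 (0.59), Gpr101 (0.57) and Slc17a6 (0.55), also lower in NA, were near them. The strongest negative values were those of Nptx1 (-0.50), Cplx2 (-0.48), Olfm1 (-0.47), Spock1 (-0.44) and Kit (-0.39), all higher in NA in bulk. Within single plates, which held 83 to 90 cells each, rho with Nts ranged over 0.57 to 0.75 for Rxfp1, 0.53 to 0.73 for Syt2 and -0.53 to -0.40 for Cplx2. Most pairs were weak: the median rho was 0.09 for pairs of genes both higher in NA, 0.06 for pairs both lower and -0.01 for pairs with 1 of each. Some genes lower in NA went against their side, Fth1 (-0.32) among them. Most of these were ribosomal protein genes, such as Rpl13 (-0.33), Rps13 (-0.27), Rpl3 (-0.25) and Rpl35 (-0.22). Of the ribosomal protein genes compared, all of which fell in NA in bulk, only Rps24 (0.025) was not negative. Genes in this paragraph were named after their values were seen.

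**Figure D5:**
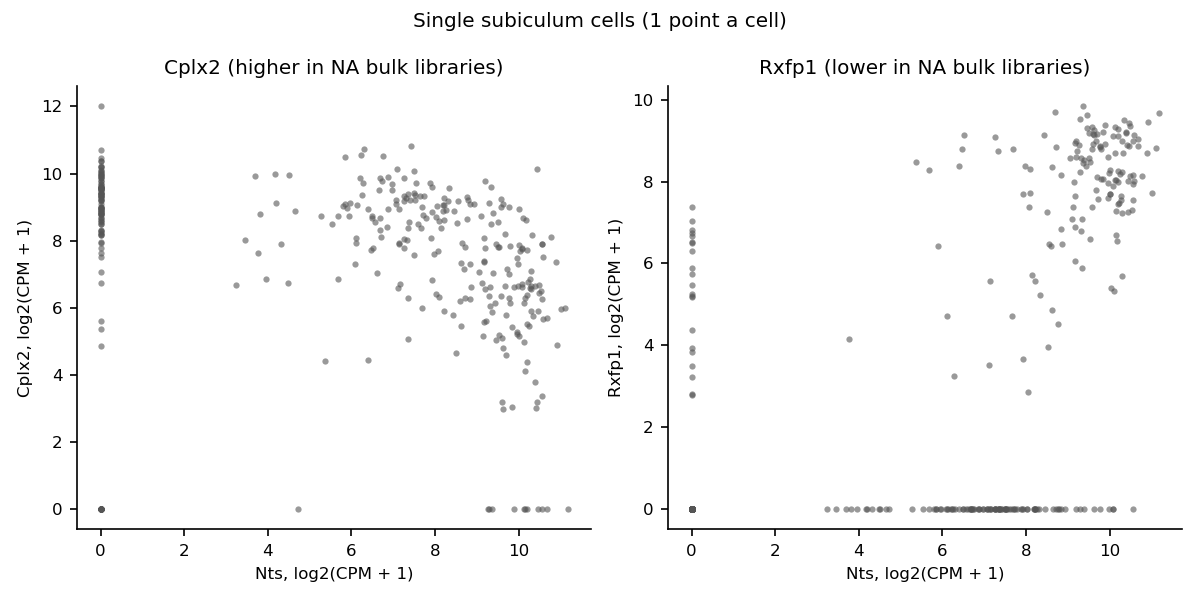
Nts against Cplx2 (left, higher in NA in bulk) and against Rxfp1 (right, lower in NA in bulk) in 348 single subiculum cells, 1 point a cell, both axes in log2(CPM + 1). Cells rich in Nts have less Cplx2 (rho = -0.48), and cells with Rxfp1 are mostly cells rich in Nts (rho = 0.68).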

How the data were processed

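Raw fragment totals per gene, for 12 bulk libraries of sorted mouse subiculum cells, were deposited by the authors in a tracking table, as estimated counts, beside FPKM values; per the file headers, fragments carry decimals (8.51% of positive values), and they were rounded here. The deposited single-cell table holds counts per gene and well, per the file headers. Reads were placed on mm9, per the submitters' processing notes; aligner roles and strand use are not given in the sources used here. The table numbers replicates from 0 and the labels from 1, and they were matched in order only to name libraries.

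Genes passing edgeR's filterByExpr (minimum count 10) were fitted over all 12 libraries with group means and TMM scaling in edgeR 4.0.16 (quasi-likelihood), with contrasts NA minus VHN and its difference from PFC minus RSC. P-values were adjusted by Benjamini-Hochberg over all 13916 genes, at a threshold of 0.05. CPM use the same scaling. The p-values measure the spread between the libraries. Alternatives used DESeq2 1.42.0, limma 3.58.1, other scalings and filters, and left-out libraries. Named genes were the 12 largest folds and 6 largest CPM differences in each direction, up to 3 called members of each list by adjusted p, the 5 lowest p in each direction of the difference, and the subiculum list; some of these are not reported here. The comparison, members and lists were chosen with earlier results of these data known.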

Additional observations from a re-analysis of the deposited data

How the results depend on the processing

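Between NA and VHN, 34 of the 86 named genes that passed the test did so in every alternative run, Nts, Spock1, Prkca, Cplx2, Syt2, Igfbp5 and Fn1 among them, and 0 of the 86 changed direction. The counts moved more. Genes higher and lower numbered 135 and 264 without scaling beyond total fragments, 611 and 448 with DESeq2, 597 and 307 with no filter on low counts, and 91 and 80 when the 6 NA and VHN libraries were fitted alone. Leaving out single libraries gave 72 to 281 higher and 64 to 196 lower. For the difference from PFC minus RSC, genes above and below numbered 9 and 2 with DESeq2 size factors, 3 and 2 without scaling, 147 and 117 with DESeq2, 229 and 141 with no filter, and 3 and 0 with limma on log2 FPKM at either pseudocount. Leaving out single libraries gave 2 to 48 above and 0 to 13 below. The fit of 6 libraries gives no value for it. Alternatives chosen after seeing the data were the following. Without NA replicate 2 and VHN replicate 3, 139 were higher and 107 lower, and the difference called 2 above and 0 below. Without VHN replicate 3 and RSC replicates 2 and 3, 116 were higher and 60 lower, and edgeR's test of the difference called 0 above and 0 below, with 938 genes at an unadjusted p under 0.05. With the length trend removed, 141 were higher and 118 lower, and the difference called 1 above and 0 below. PFC and RSC libraries left out in turn were also added then. The causes of these shifts were not tested. Depth limits genes at a few fragments, where folds rest on counting error and on the floor.

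Libraries with the same replicate number did not deviate together (correlations of 0.018, 0.015 and 0.00041 between NA and VHN), so the numbers were not taken as pairs. With the replicate number as a block, 217 genes were higher and 147 lower, and the difference called 19 above and 2 below.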
